A study of Mus musculus with 2 samples.

Results

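Trp63, Tfap2a, Tfap2c, Grhl1, Grhl3, Klf4, Klf5, Cebpa and Cebpb encode 9 transcription factors that set epidermal identity, and all 9 were found among 21883 protein-coding genes of the GRCm38.p6 annotation. Their chromatin contacts were read from Hi-C, an assay that ligates and sequences DNA ends lying close together in fixed nuclei. There were 2 libraries of hair matrix keratinocytes from mice at postnatal day 4.5, sorted primary cells of the follicle base that divide and give rise to hair shaft and inner root sheath. The DKO library came from cells without Tet2 and Tet3, deleted with a Cre recombinase driven by Krt14, a keratin gene active in the basal layer of stratified epithelia. The WT library came from wild-type cells. TET2 and TET3 oxidise 5-methylcytosine and so take part in removing DNA methylation.

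For each library the authors deposited a list of enriched pixels. Each pixel joins a pair of 5 kb bins that have more contacts than the bins around them. A pixel was counted at a gene where an anchor bin lay within 10 kb of either annotated gene end, a rule that uses position and no measured value. By this rule 8 of 4872 DKO pixels and 16 of 5811 WT pixels lay at the 9 genes. With 1 library per genotype there is no replicate error and no test, so what differs between the lists differs between 2 libraries and is not shown for the genotypes. The number of animals behind each library is not given in the sources used here. Both lists hold no value for a pair of bins that was not called, so an unlisted contact may still exist. Neither list measures transcripts, so the cell type and the deletion were not checked here.

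Among these factors p63, the product of Trp63, is the master regulator of stratified epithelium. AP-2 factors (Tfap2a, Tfap2c) act beside it in early epidermal commitment, and grainyhead-like factors (Grhl1, Grhl3) drive barrier formation and desmosome genes. KLF4 and KLF5 act in barrier formation and in proliferating cells, and C/EBPα and C/EBPβ promote the exit of keratinocytes from the cell cycle. Genes of this kind often lie in wide gene-poor stretches and are reached by distant enhancers through chromatin loops.

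The RefSeq promoter table holds start sites for 6 of the 9 genes, and among these only the Cebpb start lay in an anchor bin. Cebpb lies on chromosome 2 from 167688915 to 167690432 on the plus strand. The 250 bases before its start, at chr2:167688665-167688914 of GRCm38.p6, plus strand, lay in the bin from 167685001 to 167690000, and the sequence is shown because 3 DKO and 5 WT pixels rest on that bin. Capitals mark GGGCGG, the GC box read by SP and KLF factors, and CCCTC, a part of the CTCF site, each on either strand.
Cebpb promoter: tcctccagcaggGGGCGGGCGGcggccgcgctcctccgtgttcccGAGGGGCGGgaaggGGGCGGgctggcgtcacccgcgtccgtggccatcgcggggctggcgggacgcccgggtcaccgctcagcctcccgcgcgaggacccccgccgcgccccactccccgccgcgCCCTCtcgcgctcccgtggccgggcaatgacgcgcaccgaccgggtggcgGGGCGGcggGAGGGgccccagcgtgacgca

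The stretch held 5 GC boxes, starting 238, 234, 202, 191 and 30 bases before the start, and 32.7% of 32851 promoter stretches of this length held at least 1. The boxes at 238 and 234 overlap each other. CCCTC matched 3 times, at 205, 80 and 21 bases, and was found in 60.5% of promoters; its match at 205 overlaps the box at 202. AACCGGTT (grainyhead-like factors, 0.116% of promoters), GCCNNNGGC (AP-2, 13.7%), TTGCNNAA (C/EBP, 9.56%) and CATGNCC (part of a p53-family site, 10.9%) had no match on either strand of this stretch. It held 41 CG dinucleotides, against a median of 6 over all promoters, and 1.09% of promoters had as many or more. CG dinucleotides are the sites of the methylation that TET enzymes oxidise, but the lists carry no methylation measurement.

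A pixel was listed at 3 of the 9 genes in DKO (Tfap2c, Klf5 and Cebpb) and at 5 in WT (Tfap2c, Grhl1, Klf4, Cebpa and Cebpb). Over all protein-coding genes the same rule held for 20.1% in DKO and 21.2% in WT. Tfap2c and Cebpb had pixels in both lists, as did 12.9% of all genes. Klf5 had one in DKO alone (7.14% of all genes), and Grhl1, Klf4 and Cebpa had one in WT alone (8.23%). Trp63, Tfap2a and Grhl3 had none in either list. Cebpb held 6 of the 8 DKO pixels and 12 of the 16 WT pixels, and each other gene with a pixel had 1 in a list.

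**Figure D1:**
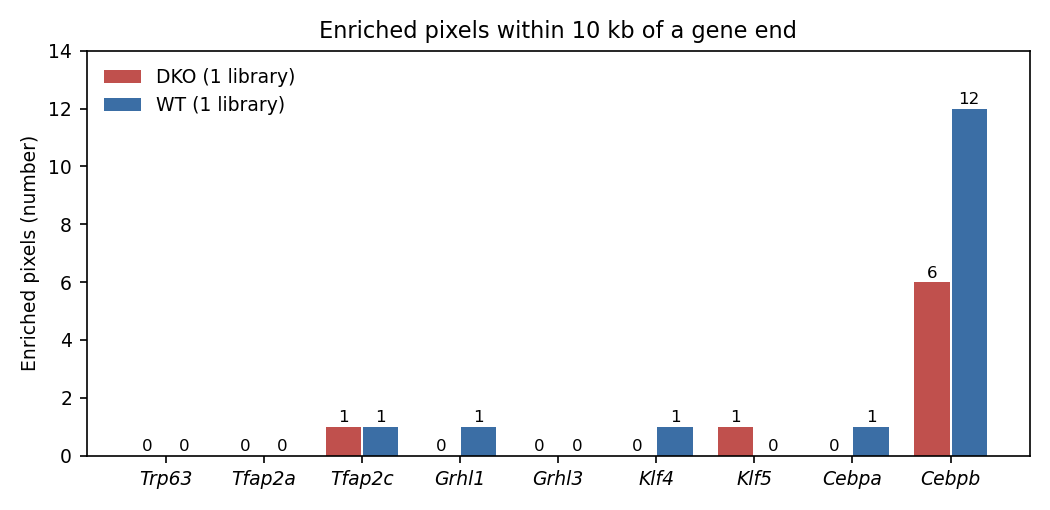
Number of enriched pixels with an anchor bin within 10 kb of a gene end (vertical axis) for the 9 genes (horizontal axis), in the DKO library (red, left bar) and the WT library (blue, right bar), 1 library each. Cebpb stands out with 6 DKO and 12 WT pixels, and no other gene exceeds 1.

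Cebpb encodes C/EBPβ, a basic leucine zipper factor of early keratinocyte differentiation. A block of pixels joined the gene to bins between 167885001 and 167905000, on the downstream side, over 200 to 220 kb. The block was a contact of both libraries: 6 pixels formed it in DKO and 10 in WT, and all 6 DKO pixels were also WT pixels. The pixel from the bin of the promoter to 167895001 to 167900000 had 58 contacts in DKO and 56 in WT. Enrichment, the observed count divided by the count expected from the donut-shaped neighbourhood, was 10.6 there in DKO (95% interval 8.09 to 13.8) and 8.42 in WT (6.36 to 10.9). These intervals are exact Poisson intervals that take the expected count as fixed and cover counting error only. Whether duplicate reads were removed is not stated in the sources used here, and differences between libraries are not covered, so the true error may be larger.

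The highest Cebpb count in DKO was this pixel, with 58 contacts, which 6 of 4872 DKO pixels reached or passed. In WT the highest count lay 1 bin further upstream, from 167680001 to 167685000, with 59 contacts at 10.1 times the expected count (7.71 to 13.1), and 6 of 5811 WT pixels reached it. The same pixel had 37 contacts in DKO, 7.35 times expected (5.17 to 10.1). The pixel from the promoter bin to 167890001 to 167895000 had 48 contacts in DKO, 10.7 times expected (7.88 to 14.2), and 51 in WT, 9.25 times expected (6.89 to 12.2). By enrichment these pixels ranked lower than by count, since 3.72% of DKO pixels and 4.41% of WT pixels were at least as enriched as the best Cebpb pixel of their list.

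Over the 6 common pixels the summed count was 227 contacts in DKO and 240 in WT, at summed donut expected counts of 30.0 in DKO and 34.8 in WT. The DKO/WT ratio of enrichments was 1.09 (exact conditional binomial 95% interval 0.909 to 1.32). Per pixel the ratio ran from 0.726 (0.468 to 1.11), at the WT maximum, to 1.57 (0.923 to 2.71), at the pixel of 36 DKO and 26 WT contacts between 167680001 and 167890001. None of the 6 single-pixel intervals left out 1, against 1.6% of the 1940 pixels listed in both libraries. The summed ratio depended on the neighbourhood used: with bottom-left expected counts it was 1.33 (1.11 to 1.60), an interval that leaves out 1. With horizontal expected counts it was 0.943 (0.783 to 1.13), with vertical ones 0.980 (0.813 to 1.18), and with counts scaled by relative depth 0.972 (0.807 to 1.17).

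**Figure D2:**
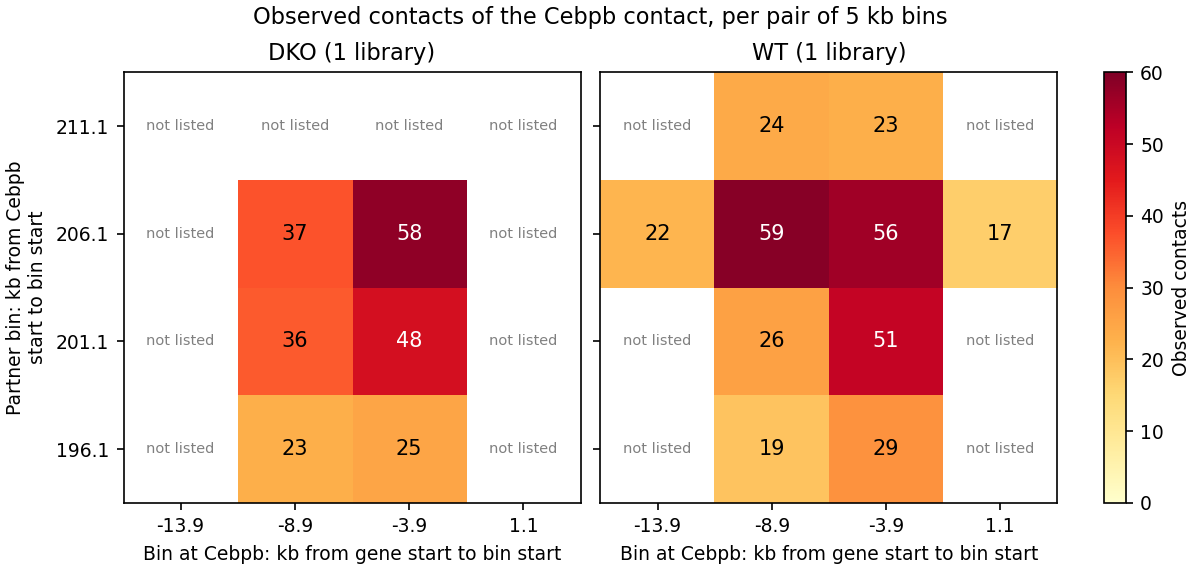
Observed contacts in each pair of 5 kb bins of the Cebpb block, DKO left and WT right, with the bin at Cebpb on the horizontal axis and the partner bin on the vertical axis, both as kb from the gene start to the bin start. The 6 DKO pixels fill a block of 2 by 3 bins with 23 to 58 contacts, and the WT list adds 4 pixels of 17 to 24 contacts around the same block.

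The 4 WT pixels of the block without a DKO listing had 17, 22, 23 and 24 contacts, at 3.67 to 4.90 times the expected count. They lie on the rim of the block, and each had a DKO pixel within 2 bins at both anchors. The WT list held another pair of Cebpb contacts that the DKO list did not. One ran 80 kb from the promoter bin to 167765001 to 167770000, where the long non-coding RNA gene Gm32287 lies, with 23 contacts at 4.69 times expected (2.97 to 7.03). The other ran 145 kb upstream, from 167675001 to 167680000 to the bin at 167530001 to 167535000, with 14 contacts at 7.34 times expected (4.01 to 12.3). That bin lies 3.20 kb from Snai1, which encodes the repressor SNAIL known for epithelial to mesenchymal transition, and the Cebpb end of the contact lies 8.92 kb from the gene. By number of pixels Cebpb was among the genes with most: 191 of the 4391 genes with a DKO pixel had 6 or more, and 8 of the 4631 with a WT pixel had 12 or more, where the median was 1 in both lists.

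No protein-coding gene shared most of its pixels with Cebpb. The nearest was Snai1, with 1 pixel in common, a Jaccard index of 0.0370 over the pixels of both lists. No protein-coding gene end lay within 10 kb of the distal bins of the block. The nearest protein-coding gene to the bin at 167895001 was Ptpn1, which encodes a tyrosine phosphatase, 30.8 kb away. The distal bin from 167885001 to 167890000, an anchor of 2 DKO and 2 WT pixels, had an end of the long non-coding RNA gene Gm33033 within 10 kb. The long non-coding RNA gene A530013C23Rik lies next to Cebpb, from 167690759 to 167697413 and 0.759 kb from the bin of the Cebpb promoter, and bins of 5 kb cannot tell contacts of these neighbours apart.

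Cebpa, the paralog that encodes C/EBPα, lies on chromosome 7 from 35119293 to 35121928, plus strand. It had no pixel in DKO and 1 in WT. The WT pixel joined the bin at 35125001 to 35130000, 3.07 kb past the downstream end, to 35030001 to 35035000 inside Pepd, the prolidase gene. It had 19 contacts at 3.50 times expected (2.10 to 5.46), and its highest q-value was 0.0820, so it was among the weaker calls.

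A larger contact passed over Cebpa in both libraries without touching its ends. It joined bins from 35020001 to 35040000, inside Pepd, to bins from 35165001 to 35180000. The nearest protein-coding gene on that side was Slc7a10, an amino acid transporter gene, 11.1 kb from the pixel of highest count in each list. The DKO pixels that reached 35175001 to 35180000, a bin absent from the WT contact, had an end of Slc7a10 within 10 kb. The DKO pixel from 35035001 to 35040000, also absent from WT, had an end of Cebpg, a further C/EBP paralog, within 10 kb. DKO listed 8 pixels with 147 contacts and WT 4 pixels with 92 contacts. At the 4 common pixels the summed counts were 75 in DKO and 92 in WT, at 4.72 times expected in DKO and 5.60 times in WT. The DKO/WT ratio was 0.843 (0.613 to 1.16). Cebpa was thus enclosed by a contact of both lists, and the shorter contact ending beside it was listed in WT alone. With Pepd it had 1 pixel in common, a Jaccard index of 0.167.

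Tfap2c encodes AP-2γ and lies on chromosome 2 from 172545678 to 172558622. Each library listed 1 pixel there, both over 225 kb and both towards higher coordinates, but no bin was the same. In DKO the pixel joined 172550001 to 172555000, inside the gene, to 172775001 to 172780000, with 19 contacts at 6.72 times expected (4.05 to 10.5). In WT it joined 172540001 to 172545000, 0.678 kb before the lower end, to 172765001 to 172770000, with 15 contacts at 3.92 times expected (2.20 to 6.47). Both anchors were shifted by 10 kb, so the contact counts as shared at a tolerance of 2 bins and as not shared at 1 bin. The highest q-value was 2.08e-04 in DKO and 0.0790 in WT. The distal anchors held no gene end within 10 kb, and the nearest protein-coding gene was Bmp7, a BMP ligand gene, 88.0 kb away in DKO and 98.0 kb away in WT. The WT list held a further contact over the whole gene, from 172475001 to the same distal bin at 172765001, with 15 contacts at 4.98 times expected (2.79 to 8.22).

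Tfap2a, on chromosome 13 from 40713802 to 40738238, encodes AP-2α and had no contact near it. The closest anchor bin of any pixel lay 397 kb from a gene end in DKO and 392 kb in WT, and no pixel enclosed the gene in either list. The AP-2 pair thus differed in both libraries, Tfap2c with a listed contact and Tfap2a without one within reach.

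Grhl1, on chromosome 12 from 24572232 to 24617391, plus strand, encodes a regulator of desmosomal cadherin genes. By the 10 kb rule it had no DKO pixel and 1 WT pixel, from 24605001 to 24610000 inside the gene to 24465001 to 24470000, with 15 contacts at 8.21 times expected (4.59 to 13.5). That pixel was the edge of a contact of both lists. Its neighbour from 24600001 to 24470001, 12.4 kb from the gene end and so just outside the rule, had 22 contacts in DKO, 8.41 times expected (5.27 to 12.7), and 18 in WT, 6.78 times expected (4.02 to 10.7). The ratio there was 1.24 (0.635 to 2.46). The WT list held 5 pixels of this contact with 81 contacts, and DKO the 1 pixel of 22.

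The same bin inside Grhl1 also contacted the other side. It reached 24700001 to 24705000 in DKO, with 14 contacts at 5.75 times expected (3.14 to 9.64), and 24695001 to 24700000 in WT, with 18 contacts at 5.68 times expected (3.36 to 8.97). Those bins lay 3.25 kb and 8.25 kb from Rrm2, which encodes a subunit of ribonucleotide reductase and is active in dividing cells. The bin from 24600001 to 24605000 was thus an anchor in both directions in both libraries, and with a window of 15 kb in place of 10 kb Grhl1 had pixels in both lists.

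Grhl3, on chromosome 4 from 135541887 to 135573632, minus strand, encodes a factor required for the skin barrier. No pixel met the rule, but a contact enclosed the gene in both libraries. It joined bins from 135505001 to 135530000, inside Stpg1, to bins from 135660001 to 135675000, with 9 DKO pixels and 11 WT pixels. The pixel with most contacts in DKO had 35 at 6.46 times expected (4.497 to 8.98), and the one in WT had 44 at 7.84 times expected (5.70 to 10.5). Over the 8 common pixels both libraries had 215 contacts, at 5.36 times expected in DKO and 5.41 times in WT. The DKO/WT ratio was 0.990 (0.816 to 1.20). The closest bin lay 16.9 kb from the gene in DKO and 11.9 kb in WT. On the other side Ifnlr1, an interferon lambda receptor gene, was the nearest protein-coding gene, 16.5 kb from the top pixels of both lists.

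Klf4, on chromosome 4 from 55527137 to 55532475, minus strand, encodes a factor of barrier formation that is also one of the reprogramming factors. It had no DKO pixel and 1 WT pixel, which had 12 contacts at 5.06 times expected (2.61 to 8.84). The pixel joined 55515001 to 55520000, 7.14 kb downstream of the gene, to 55645001 to 55650000, 5.81 kb past the end of the long non-coding RNA gene Gm12506, whose span runs from 55532710 to 55639189. It enclosed both genes. Its highest q-value was 0.0999, and no WT pixel had a higher one. In DKO the closest anchor bin of any pixel was 1483 kb from Klf4.

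Klf5, on chromosome 14 from 99298691 to 99313412, encodes a factor of proliferating basal cells. It had 1 DKO pixel and no WT pixel. The DKO pixel joined the bin that holds the lower gene end, 99295001 to 99300000, to 99390001 to 99395000, with 13 contacts at 4.20 times expected (2.24 to 7.19). The nearest protein-coding gene to that partner bin was Klf5 itself, 76.6 kb away, and the pseudogene Gm49219 lay 2.22 kb from it. A long contact passed over Klf5 in both lists, from 99140001 to 99145000 inside Pibf1 to bins from 99890001 inside Klf12, a related repressor gene. It spanned 750 kb in DKO, with 15 contacts at 5.88 times expected (3.29 to 9.69). In WT it spanned 750 to 760 kb in 3 pixels, of which the one with most contacts, to 99895001, had 20 at 8.16 times expected (4.98 to 12.6). The pixel common to both lists had 15 contacts in DKO and 14 in WT, where it was 5.01 times expected (2.74 to 8.41).

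Trp63, on chromosome 16 from 25683763 to 25892088, was the longest of the genes at 208 kb and had no pixel at its ends. In DKO 1 pixel reached into the gene body, 42.1 kb from the upper end, from 25845001 to 25850000. It ran 460 kb to 25385001 to 25390000 inside Tprg, the neighbouring gene, with 15 contacts at 5.49 times expected (3.07 to 9.05). In WT the closest anchor bin lay 72.9 kb beyond the gene. No pixel enclosed Trp63 in either list.

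**Figure D3:**
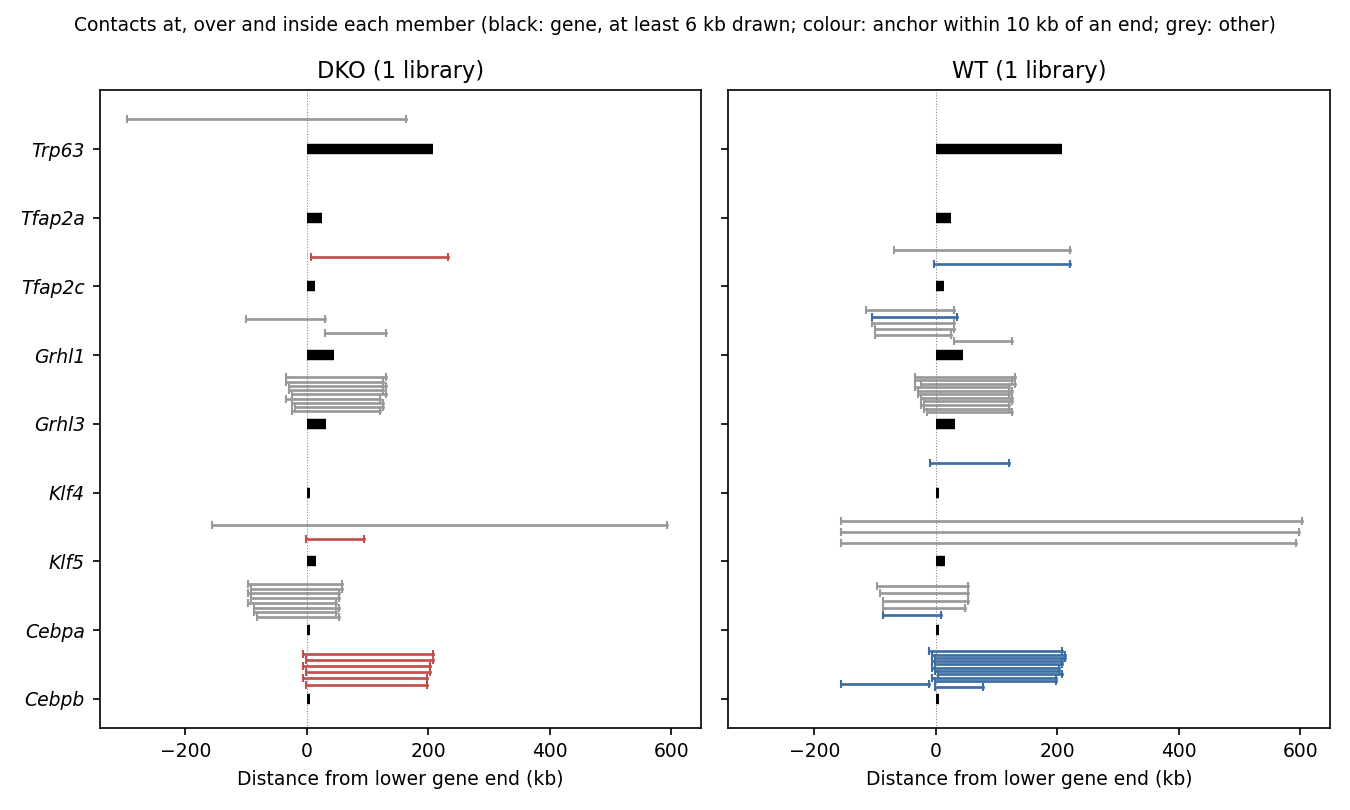
Each line joins the centres of the anchor bins of 1 pixel, as kb from the lower end of the gene (horizontal axis), for contacts at, over or inside each of the 9 genes or within 20 kb of their ends, DKO left and WT right. Black bars are the genes, coloured lines have an anchor within 10 kb of a gene end and grey lines do not. Grhl3 and Cebpa lie under grey lines in both libraries, Klf5 under lines of 750 to 760 kb, and Tfap2a has no line.

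Counted over all 9 genes, 4 were enclosed by at least 1 pixel in DKO (Grhl3, Klf5, Cebpa and Cebpb), where 12.7% of all protein-coding genes were. In WT 6 were enclosed, these 4 with Tfap2c and Klf4, against 14.4% of all genes. The count partly repeats the pixels already described: every pixel that enclosed Cebpb, and the 1 that enclosed Klf4, also met the 10 kb rule. So did 1 of the WT pixels that enclosed Cebpa and 1 of those that enclosed Tfap2c. Grhl3, Klf5 and Cebpa were enclosed in both lists by other pixels that did not meet the rule, and Tfap2c in WT. The shares over all genes likewise include pixels at the gene ends. This count was made after the lists had been seen and is a description.

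Few partner anchors of the listed pixels were ends of protein-coding genes, and most of these pixels belonged to the Cebpb block. In DKO 0 of 8 pixels had a protein-coding gene end within 10 kb of the partner bin. In WT 2 of 16 did, the contacts to Snai1 and Pepd. Of all pixels at protein-coding gene ends, 47.5% in DKO and 45.7% in WT had a gene end at the other anchor too. With non-coding genes and pseudogenes included, 3 of 8 DKO and 6 of 16 WT partner bins had a gene end, against 69.7% in DKO and 67.5% in WT over all pixels at protein-coding gene ends. Pixels of 1 contact share their anchors, and 6 of the DKO and 10 of the WT pixels are the Cebpb block, so these are not independent cases. No partner bin of the block had a protein-coding gene end. Those of Klf5 and Tfap2c in DKO had none either, so the low DKO share did not rest on the block alone. Outside the block, the partner bin of Klf5 in DKO had a gene end of some kind. In WT those of Klf4, Cebpa and the Cebpb contacts to Gm32287 and Snai1 did. Those of Tfap2c in both lists and of Grhl1 in WT did not.

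The pixels spanned 95 to 225 kb in DKO and 80 to 225 kb in WT. The median DKO pixel spanned 207.5 kb and the median WT pixel 205 kb, against 100 kb in DKO and 115 kb in WT over all pixels of the lists. Without Cebpb the median span was 160 kb in DKO, over 2 pixels, and 135 kb in WT, over 4. Median enrichment was 7.03 in DKO and 4.79 in WT, against 4.95 in DKO and 5.11 in WT over all pixels. Without Cebpb the median enrichment was 5.46 in DKO and 4.49 in WT. In WT the 10 pixels of the Cebpb block include its weaker rim, which DKO does not list.

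**Figure D4:**
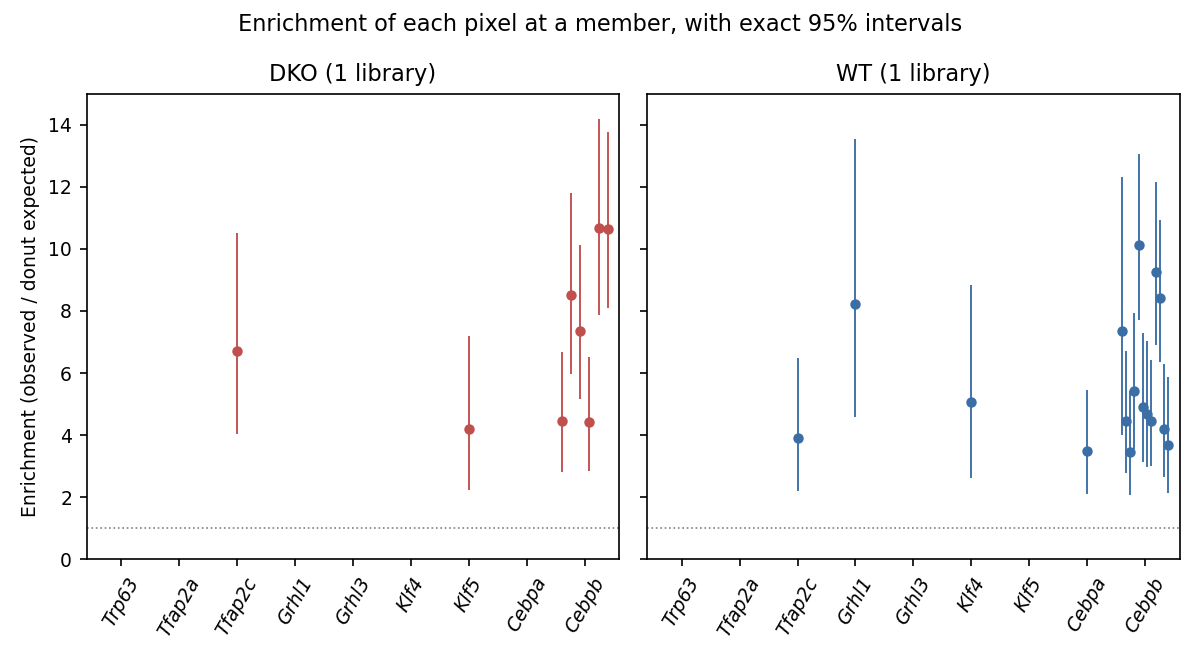
Enrichment (observed contacts over donut expected contacts, vertical axis) of every pixel at the 9 genes (horizontal axis), DKO left and WT right, with exact Poisson 95% intervals. The dotted line marks observed equal to expected. DKO values run from 4.20 to 10.7 and WT values from 3.46 to 10.1, with the highest values of both lists at Cebpb.

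The pixels joined into 3 contacts in DKO and 7 in WT when pixels were linked within 20 kb at both anchors. Of these, 2 in DKO (Tfap2c and Cebpb) and 3 in WT (Tfap2c, Grhl1 and Cebpb) lay within 2 bins, at both anchors, of a pixel in the other list. Over all contacts of the lists the share was 55% of 2641 in DKO and 50.1% of 2902 in WT. The contacts listed in 1 library alone were the Klf5 contact in DKO, and in WT those of Klf4 and Cebpa and the pair from Cebpb to Gm32287 and Snai1. Each was 1 pixel of 12 to 23 contacts. With all 4 q-values held under 0.01, the DKO list kept 6 of its 8 pixels and the WT list 10 of its 16. Among the unshared contacts only the WT contact of Cebpb with Gm32287 passed that limit.

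The distance rule decided several listings. Just inside it were the WT bins at Cebpb (8.92 kb), Grhl1 (7.39 kb) and Klf4 (7.14 kb). Just outside were Grhl3 in WT (11.9 kb), Grhl1 in DKO (12.4 kb) and Grhl3 in DKO (16.9 kb). With 5 kb in place of 10 kb, 3 genes had a pixel in each list, Tfap2c, Klf5 and Cebpb in DKO and Tfap2c, Cebpa and Cebpb in WT. With 20 kb there were 5 in DKO and 6 in WT, and Grhl1 and Grhl3 then had pixels in both. Over all protein-coding genes the share with a pixel was 15.9% in DKO and 16.3% in WT at 5 kb, and 26.1% in DKO and 28.1% in WT at 20 kb.

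**Figure D5:**
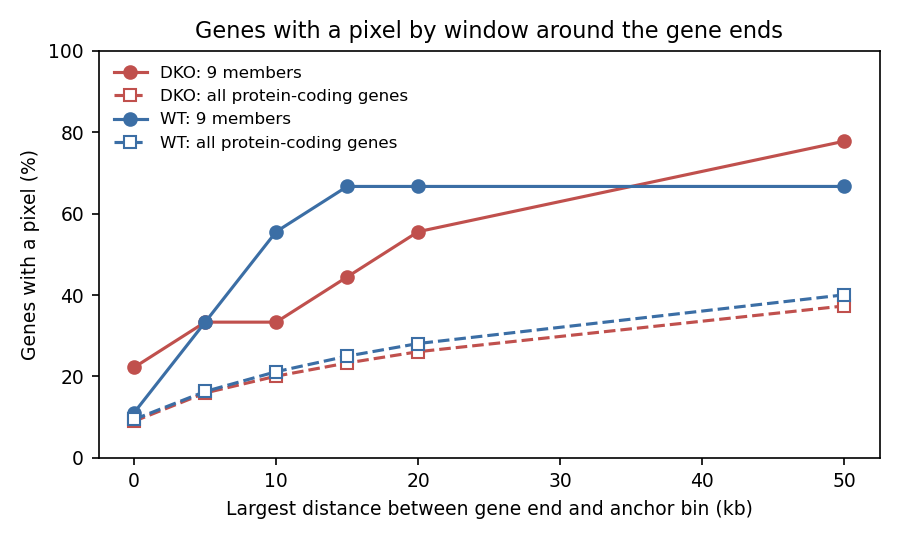
Share of genes with a pixel (vertical axis, %) by the largest distance allowed between a gene end and an anchor bin (horizontal axis, kb), for the 9 genes (filled circles, solid lines) and all protein-coding genes (open squares, dashed lines), DKO red and WT blue. The 9 genes reach 7 in DKO and 6 in WT at 50 kb, beside 37.3% of all protein-coding genes in DKO and 40.0% in WT. Among the 9 genes the order of the libraries changes along the axis.

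Related genes were placed by the same rule. Of 19 family paralogs, 8 had a pixel in DKO and 8 in WT. These were 4 in both lists, 4 in DKO alone and 4 in WT alone. The 19 do not cover the whole families: Klf12, for example, is not among them. Klf10 led with 4 DKO and 6 WT pixels, followed by Klf3 with 4 DKO and 3 WT pixels and Tfap2e with 2 DKO and 3 WT pixels. Grhl2, the third grainyhead-like gene, had 2 DKO pixels and 1 WT pixel. Of 30 other epidermal transcription factor genes, 10 had a pixel in DKO and 9 in WT, 7 of them in both, 3 in DKO alone and 2 in WT alone. Dlx3, a homeobox gene of hair and epidermis, had 7 DKO and 10 WT pixels. Foxn1, which controls hair keratin genes, had 6 in each list. Hes1, a NOTCH target, had 4 DKO and 5 WT pixels, and Fos, which encodes a subunit of AP-1, had 3 DKO and 5 WT pixels.

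Of 30 textbook targets of the factors, 13 had a pixel in DKO and 11 in WT, 9 of them in both, 4 in DKO alone and 2 in WT alone. Krt14, the basal keratin gene, had 5 DKO and 2 WT pixels. Krt10, a suprabasal keratin gene, and Perp, a desmosomal p63 target, each had 3 in DKO and 2 in WT, and Itgb4, the β4 integrin gene of hemidesmosomes, 3 in DKO and 1 in WT. These genes were named for their number of pixels over both lists, and 15 of the 30 targets had a pixel in either. Among the rest, Cdkn1a (0 in DKO, 3 in WT), Fgfr2, Itga3 and Tgm3 had more in WT. Rab25, Dsp, Cdh1, Tgm1, Egfr and Jag1 had more in DKO, and Cldn1 had 1 in each. In DKO the shares were 42.1% of listed paralogs, 33.3% of the other factors and 43.3% of the targets, beside 20.1% of all protein-coding genes. In WT they were 42.1%, 30.0% and 36.7% of the same lists, beside 21.2% of all protein-coding genes. The lists were chosen with earlier results of these data known, so these shares are a description.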

How the data were processed

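Each library has 1 list of enriched pixels, made with juicer_tools 1.22.01 per the file headers. The submitters' processing notes name Juicer and GRCm38 (mm10). The aligner, read filters and sequencing depth are not stated there. The authors deposited raw observed contact counts, 1 per pixel. They also deposited expected contacts of 4 neighbourhoods (bottom-left, donut, horizontal, vertical) as a signal on the scale of the counts. The deposited q-values, 1 per neighbourhood, were all under 0.1, and the deposited class numbers, a score, were not used.

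Gene ends came from RefSeq (GRCm38.p6, chromosomes 1 to 19, X and Y), promoter sequences from its promoter table, and coordinates are 1-based. That table holds 6 of the 9 genes; Trp63, Tfap2c and Klf5 are named only. Pixels were joined by single linkage within 20 kb at both anchors, and matched between lists within 2 bins. Relative depth was the median DKO/WT ratio of donut expected counts at the 1940 common pixels, 0.973 (quartiles 0.904 and 1.05). Intervals are exact at 95% (Poisson or conditional binomial). With 1 library per group there was no test. Named were all 9 genes, up to 3 genes with an end within 10 kb of a partner anchor, genes with a Jaccard index of at least 0.5 (none; the highest for Cebpb is given) and up to 4 genes per list. Genes nearest to an anchor beyond 10 kb, genes that hold an anchor, non-coding genes and contacts that enclose a gene were added after the values were seen. The members and lists were chosen with earlier results of these data known. The linkage, matching and ratio intervals were tested on simulated data. The gene rule was compared only with the same formula written out again, which could not show an error in that formula. Python 3.11.15, pandas 2.3.3 and scipy 1.17.1 were used. Alternatives were other gene windows, q-value and count limits, linkage, matching and expected counts.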

Additional observations from a re-analysis of the deposited data

How the results depend on the processing

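No paired analysis was possible because only 1 library per genotype was listed and nothing was tested, so no replicate could be left out either. Windows of 15 and 50 kb and the omission of Cebpb were chosen after seeing the data. The number of pixels (8 in DKO, 16 in WT) became 4 in DKO and 6 in WT with the gene end inside the bin, 29 in DKO and 37 in WT within 50 kb, and 2 in DKO and 4 in WT without Cebpb. In WT it was 10 at q-values under 0.01 and 9 with at least 20 contacts. The number of genes with a pixel (3 in DKO, 5 in WT, 2 in both) was 5 in DKO and 4 in both within 20 kb, and 5 in DKO by gene bodies. It was 7 in DKO and 5 in both within 50 kb, where 37.3% of all protein-coding genes had a DKO pixel and 40.0% a WT pixel. With at least 20 contacts the number of genes was 1 in DKO, WT and both. In WT it was 3 within 5 kb, 1 inside the bin, 2 at q-values under 0.01 and 2 without weak 1-pixel contacts. Under these last 3 settings 1 gene had pixels in both. With the gene end inside the bin, 8.99% of all protein-coding genes had a DKO pixel and 9.44% a WT pixel. Contacts numbered 6 in DKO within 20 kb, and in WT 4 within 5 kb, 2 inside the bin, 3 at q-values under 0.01 and 4 without Cebpb. Shared contacts in DKO were 1 at the exact pixel, within 1 bin, inside the bin, at q-values under 0.01 and without Cebpb, and 5 within 20 kb; in WT they were 1 inside the bin and 5 within 20 kb. Median WT enrichment was 3.91 with horizontal and 3.63 with the highest expected counts, and the WT median span was 135 kb without Cebpb. Partner bins at a gene end numbered 1 in DKO within 20 kb, and in WT 1 within 5 kb and 0 at q-values under 0.01. The summed Cebpb ratio was 1.33 with bottom-left expected counts. Wider windows hold more pixels by construction and stricter limits fewer; the cause of the other changes was not tested. The remaining 74 of 117 recomputed values stayed within 1.5 times or within their interval. Called pixels had at least 10 contacts, so weaker contacts are not recorded.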

Other observations

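The RefSeq promoter table places start sites for 6 of the 9 genes. Beside Cebpb, whose start lies inside an anchor bin of both lists, the closest in WT was Cebpa, 45.7 kb from an anchor bin in DKO and 5.71 kb in WT. Klf4 starts 1483 kb from an anchor bin in DKO and 12.5 kb in WT. Grhl1 has 2 starts in the table, 19.3 and 27.7 kb from the nearest anchor bin in DKO and 14.3 and 22.7 kb in WT. Grhl3 starts 31.4 kb from one in DKO and 43.6 kb in WT. Tfap2a has 2 starts, 400.1 and 401.2 kb from one in DKO and 395.1 and 396.2 kb in WT, with 10 CG dinucleotides in the 250 bases before each. In the 250 bases before the start, Klf4 has 32 CG dinucleotides, Cebpa 22 and Grhl3 8. The Grhl1 start nearer to an anchor bin has 0 and the farther one 27.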
